A study of Caenorhabditis elegans with 16 samples.

Results

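The srh genes are one of the large families of chemoreceptor genes of C. elegans, and they were followed here through the scores of RNA polymerase DamID (RAPID) in 2 tissues where receptors of chemosensory neurons are not expected to be transcribed. Members were taken by name, as every gene called srh followed by a number, which gave 220 of the 19974 named genes in each deposited table. All 220 are listed as protein-coding genes in the RefSeq table of WBcel235, and no measured value was used to choose them.

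In RAPID a bacterial adenine methyltransferase, Dam, is fused to RPB-6, a subunit shared by the nuclear RNA polymerases, and methylates GATC sites near where polymerase sits. The score of a gene is log2(Dam::RPB-6/GFP::Dam), so that freely diffusing GFP::Dam sets the level expected from accessibility alone. A score of 0 means equal signal from both fusions after the authors' normalization, and a positive score means more methylation by the polymerase fusion. A gene was called expressed where the deposited false discovery rate (FDR) of the polymerase call was under 0.05.

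There were 16 libraries in 8 groups of 2, with either Dam::RPB-6 or GFP::Dam expressed in hypodermis or in intestine, in L4 larvae that were wild type or baf-1(G12T). The baf-1(G12T) strain carries, in the worm gene for barrier-to-autointegration factor, a substitution modelled on a human progeria allele. In all strains a cassette stood between a heat-shock promoter and the Dam fusion. Once the FLP recombinase removes it, the promoter can drive the fusion. FLP was expressed from the dpy-7 promoter in hypodermis and from the nhx-2 promoter in intestine. Each tissue and genotype therefore had GFP::Dam libraries of its own, and about 4000 larvae per strain were grown for 48 h at 20 °C on bacteria that lack Dam. Each of the 4 combinations has 1 deposited score and 1 FDR per gene, so the differences between these scores carry no replicate error, no test was run, and the read depth behind a gene is unknown.

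Nematode chemoreceptors are seven-transmembrane proteins that sit in the cilia of head and tail sensory neurons, where they couple to G proteins and open cyclic-nucleotide-gated or TRPV channels. The genome holds far more of them than a worm has sensory neurons, most in tandem arrays on the arms of chromosome V, and many have no known ligand. The ADL neuron, an avoidance neuron of the head, is known to express srh-220 and srh-234, and srh-142 is known as a gene of the ADF neuron.

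Because Dam reads only GATC, the number and place of these sites set what can be seen at a receptor gene. The windows from 250 bases before to 50 bases after the RefSeq start are shown for srh-303 and srh-206, the members with the highest single scores, and for srh-220, the ADL gene, all on WBcel235 and each read 5′ to 3′ on the gene's own strand, with GATC in capitals. The srh-303 window is chrV:17831400-17831699 on the plus strand, that of srh-206 is chrV:16954817-16955116 on the minus strand, and that of srh-220 is chrIV:3977966-3978265 on the minus strand.
srh-303: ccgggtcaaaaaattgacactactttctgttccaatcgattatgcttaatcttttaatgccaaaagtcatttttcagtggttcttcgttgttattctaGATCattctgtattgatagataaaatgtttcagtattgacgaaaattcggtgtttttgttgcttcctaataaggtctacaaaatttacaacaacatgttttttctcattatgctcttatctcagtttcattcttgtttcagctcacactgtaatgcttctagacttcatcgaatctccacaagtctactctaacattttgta
srh-206: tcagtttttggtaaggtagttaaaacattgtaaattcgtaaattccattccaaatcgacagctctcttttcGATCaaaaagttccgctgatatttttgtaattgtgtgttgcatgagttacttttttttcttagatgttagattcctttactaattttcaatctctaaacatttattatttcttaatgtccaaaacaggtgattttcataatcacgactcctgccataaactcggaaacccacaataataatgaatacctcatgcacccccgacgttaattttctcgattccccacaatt
srh-220: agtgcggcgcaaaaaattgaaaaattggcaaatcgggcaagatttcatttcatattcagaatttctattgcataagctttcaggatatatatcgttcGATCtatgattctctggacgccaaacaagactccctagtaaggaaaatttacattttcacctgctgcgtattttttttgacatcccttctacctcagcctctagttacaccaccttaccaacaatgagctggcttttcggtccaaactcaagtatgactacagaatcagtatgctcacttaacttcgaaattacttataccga
Each of these windows holds 1 GATC site. GATC was found in the windows of 114 of the 220 members (51.8%), of 8 of the 13 members called in any group (61.5%) and of 47.6% of all 19111 genes placed. TGATAA, the letters recognised by GATA factors such as the intestinal ELT-2 and the hypodermal ELT-3, was searched on both strands and shares no more than the letters GAT with the Dam site. It was present in 27.7% of the srh windows and in 30.2% of all windows.

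The family lay close to 0 in both tissues and both genotypes. The median srh score was -0.03 for wild-type and -0.00094 for baf-1(G12T) hypodermis, and -0.04 for wild-type and -0.02 for baf-1(G12T) intestine, where all named genes had medians of -0.04, -0.02, -0.07 and -0.02. Within 0.1 of 0 were 184 members in wild-type hypodermis, 187 in the mutant hypodermis, 152 in wild-type intestine and 166 in the mutant intestine. The interquartile range of the scores was 0.062, 0.070, 0.107 and 0.068 in the same order, against 0.118, 0.141, 0.170 and 0.130 over all genes. Thus the srh scores were centred where the other genes were, and were more tightly packed than those of all genes.

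**Figure D1:**
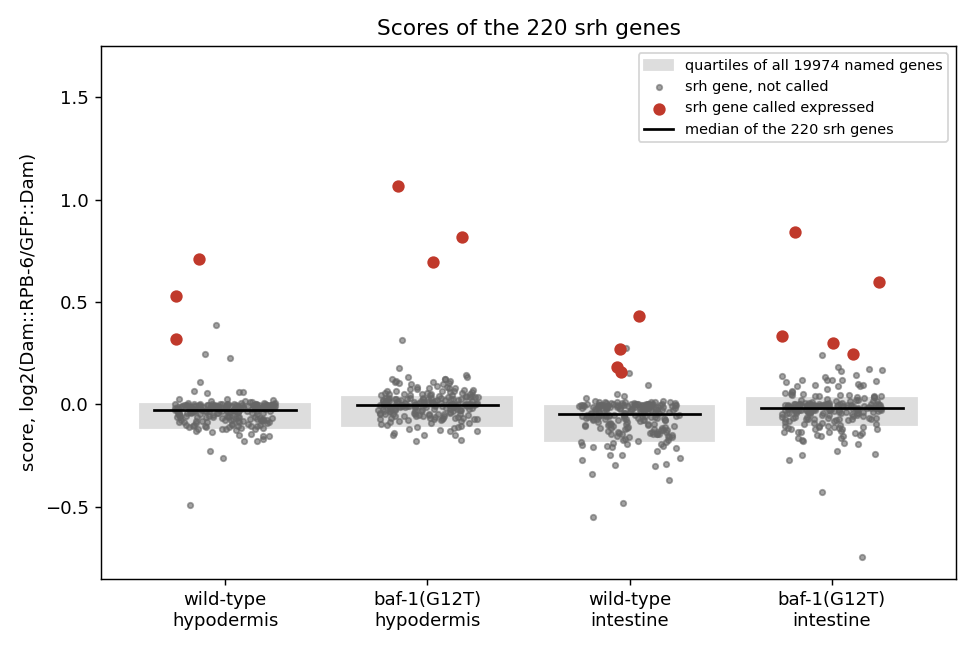
Scores of the 220 srh genes (points) in each combination of tissue and genotype, on the log2 scale, with the median of the family as a black line, the quartiles of all 19974 named genes as a grey band and members called expressed in red. The bulk of the family sits within or just beside the grey band in every group, and the red points number 3, 3, 4 and 5 from left to right.

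Few members were called. In wild-type hypodermis 3 srh genes passed (1.36%), where 9.81% of all genes did, and in baf-1(G12T) hypodermis again 3 (1.36%), against 7.53% of all genes. In wild-type intestine 4 passed (1.82%, against 7.94%), and in baf-1(G12T) intestine 5 (2.27%, against 10.5%). In all, 13 members were called in at least 1 group, which is 5.91% of the family, while 23.9% of all genes were. Only srh-10 and srh-55 were called in more than 1 group, so that 0.909% of the family was called repeatedly, compared with 8.32% of all genes. Both genotypes shared 1 called member in hypodermis (background 3.53%) and 0 in intestine (background 3.45%).

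The srh genes offer fewer GATC sites than most genes. A srh gene has a median of 5 GATC fragments and a median length of 1557.5 bp, whereas the median over all genes is 7 fragments and 2003 bp. Among genes with 4 to 7 fragments, 2 of 117 srh genes were called in wild-type hypodermis, 2 in mutant hypodermis and 2 in wild-type intestine (1.71% each), and 5 in mutant intestine (4.27%). Of all genes in that class, 7.41%, 5.86%, 5.54% and 7.71% were called. With the number of fragments held in this range, the srh share was thus still below that of all genes in each group. The interquartile range of the scores was also still narrower, 0.062 against 0.113 in wild-type hypodermis and 0.104 against 0.178 in wild-type intestine.

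The highest member over the 4 groups was srh-10, which lies alone on chromosome V, more than 20 kb from any other srh gene. Its score was 0.71 in wild-type and 0.82 in mutant hypodermis, and -0.25 in wild-type and -0.17 in mutant intestine. It was thus high in both hypodermal tables and below 0 in both intestinal ones, and its deposited FDR was 0.00176 in wild-type and 0.00568 in mutant hypodermis. No other member was called in both genotypes of a tissue. Its intestinal score lay below the hypodermal one by 0.96 in wild type and by 0.98 in the mutant, and the score rests on 5 GATC fragments.

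The other hypodermal calls appeared in 1 genotype each. srh-220 scored 0.53 in wild-type hypodermis with an FDR of 0.000758, the lowest of any member, and 0.18 in the mutant, -0.13 in wild-type intestine and -0.15 in mutant intestine. This ADL gene, with 9 fragments, was therefore called outside the neuron it is known for, in 1 of 4 groups. srh-303 scored -0.11 in wild-type hypodermis, 1.06 in mutant hypodermis, -0.18 in wild-type intestine and -0.07 in mutant intestine. The value of 1.06 was the highest of any srh gene in any group. srh-183, with 9 fragments, scored -0.04, 0.70, -0.21 and -0.24 in the same order and was again high in mutant hypodermis alone. Its deposited FDR there was 0.00161 and that of srh-303 was 0.0017.

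Apart from srh-55, the genes called in intestine were not called in hypodermis. In the mutant intestine srh-206 scored 0.84, against -0.07 in wild-type intestine, -0.09 in wild-type hypodermis and 0.05 in mutant hypodermis. srh-42 scored 0.60 there, against -0.06, -0.06 and -0.01 in the same order. Both stood out in mutant intestine alone, with FDR values of 0.0022 and 0.0085 and 4 fragments each. srh-182 (0.33), srh-83 (0.30) and srh-55 (0.25) were the remaining calls in that group. srh-55 was unusual in that it was also called in wild-type hypodermis, where it scored 0.32, but was at -0.01 in mutant hypodermis and -0.20 in wild-type intestine.

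In wild-type intestine the 4 calls were low in score. srh-49 reached 0.43, srh-99 0.27, srh-207 0.18 and srh-265 0.16, and none of these genes scored over 0.09 in another group. The lowest FDR among them was 0.0313, for srh-49, so that all 4 lay close to the threshold. The same score came with different FDR values in different tables. A member listed at exactly 0 with 2 fragments, srh-57, had an FDR of 0.139 in wild-type intestine and of 0.293 in wild-type hypodermis, and the median FDR of the family was 0.160 and 0.403 in these tables. srh-265 was called in wild-type intestine at 0.16 with 8 fragments, and srh-59 missed the threshold in wild-type hypodermis at 0.25 with 5 fragments (FDR 0.0548), a pair that differs in both table and fragment number.

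**Figure D2:**
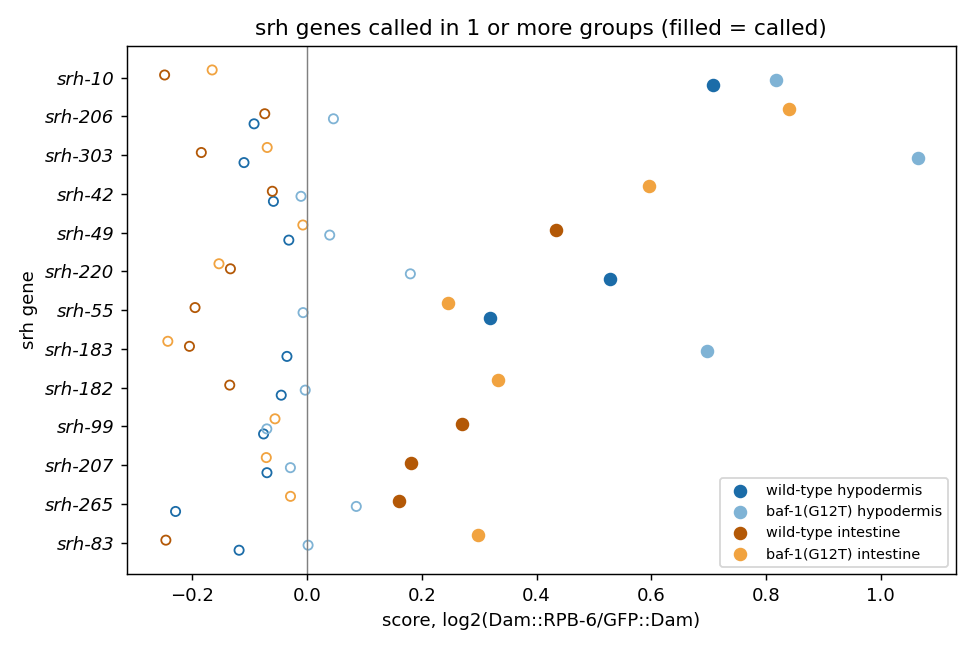
Scores (log2) of the 13 srh genes called expressed in at least 1 group, ordered by mean score, with 1 point per tissue and genotype and filled points for calls. Most rows hold 1 filled point to the right and 3 open points near or below 0. srh-10 has both hypodermal points filled, at 0.71 and 0.82.

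Scores of uncalled members overlapped those of called members in both wild-type groups but in neither mutant group. In mutant hypodermis the lowest called score was 0.70 (srh-183) and the member with the highest FDR among the calls was srh-10 (0.00568). srh-222 scored 0.31 in that group (FDR 0.0661), srh-240 0.15 in wild-type intestine (FDR 0.0623) and srh-241 0.18 in mutant intestine (FDR 0.0730). In mutant intestine the margin was small. The lowest called score was 0.246 (srh-55), and the uncalled srh-139, named after its value was seen, had 0.243 (FDR 0.0743). srh-76 scored 0.39 in wild-type hypodermis, more than the called srh-55, but has only 2 fragments and an FDR of 0.0612. srh-233, named after its value was seen, scored 0.27 in wild-type intestine on a single fragment, with an FDR of 0.0819.

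Of the receptors with a known neuron, srh-220 was called, as given above, with the lowest FDR of any member. srh-142, the ADF gene, scored 0.0012 in wild-type hypodermis and 0.028 in mutant hypodermis and was listed at 0 in both intestinal tables. srh-234, the second ADL gene, scored -0.06, -0.03, -0.14 and -0.08, and neither srh-142 nor srh-234 was called. These few genes allow no statement about such receptors as a set.

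At the low end, 3 members had the lowest mean scores. srh-237 scored -0.26 in wild-type hypodermis, -0.15 in mutant hypodermis, -0.08 in wild-type intestine and -0.74 in mutant intestine. srh-74 scored -0.18, -0.13, -0.48 and -0.43 and was lower in intestine in both genotypes. srh-1 scored -0.49, -0.01, -0.55 and -0.02, so that it was far below 0 in both wild-type tables and near 0 in both mutant ones. These genes have 4, 5 and 7 fragments.

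The question of whether the mutant differs from wild type was taken per tissue, as the mutant score minus the wild-type score. In hypodermis the median srh difference was 0.03, with 160 members higher in the mutant, 56 lower and 4 equal, and the median over all genes was 0.02. Relative to that shift 128 members were higher and 92 lower. A difference over 0.5 was found for 2 members, srh-303 at 1.17 and srh-183 at 0.73 (0.909%), where 3.50% of all genes were higher by that much, and for 0 members in the lower direction (all genes, 2.79%). Past 1 lay srh-303 alone among the higher (all genes, 1.06%) and 0 members among the lower (all genes, 0.486%). After both genotypes were brought to one distribution by quantile normalization, srh-1 joined these at 0.51, since its deposited scores had differed by 0.47. The largest lower values were -0.39 for srh-76, -0.35 for srh-220 and -0.33 for srh-55.

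In intestine the median srh difference was 0.01 with 140 members higher in the mutant, 75 lower and 5 equal, but the direction depended on the scaling. All genes had a median of 0.03, relative to which 84 srh genes were higher and 136 lower, and quantile normalization gave a median of -0.04 with 61 higher and 159 lower. Past 0.5 were 4 higher members, srh-206 at 0.91, srh-42 at 0.66, srh-83 at 0.54 and srh-1 at 0.53 (1.82%, all genes 4.39%). Only srh-237 was lower, at -0.66 (0.455%, all genes 1.90%). Past 1 lay 0 members in either direction, where 0.556% of all genes were higher and 0.451% lower. After quantile normalization 2 members were higher, srh-206 at 1.03 and srh-42 at 0.67, and 1 lower. The next lower values were -0.44 for srh-49, called in wild-type intestine only, and -0.33 for srh-99.

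**Figure D3:**
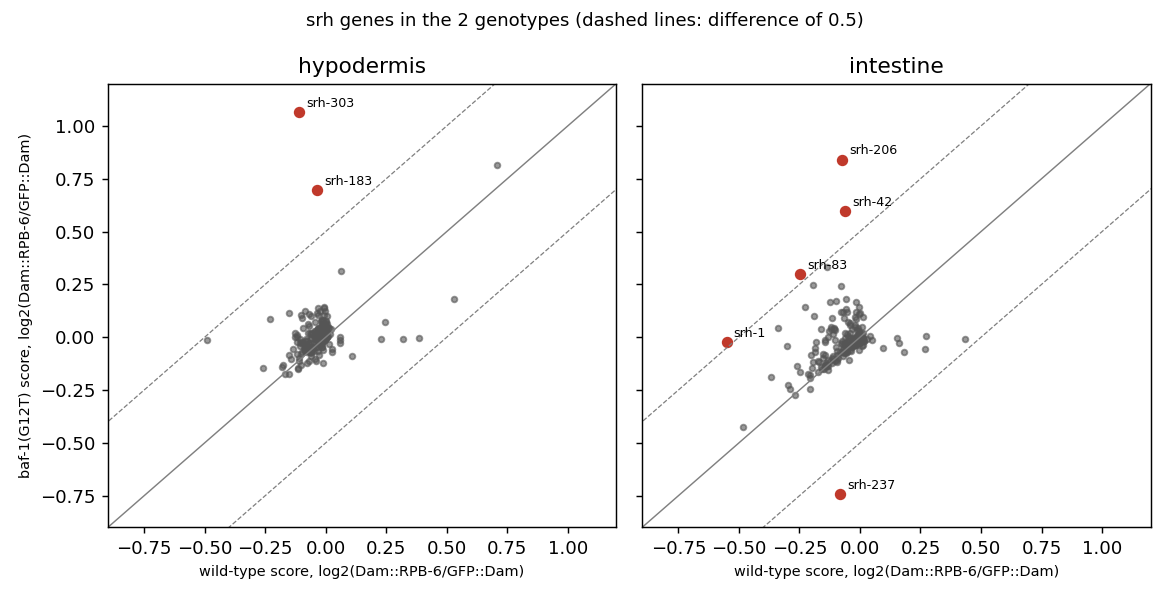
Score (log2) of each of the 220 srh genes in wild type (horizontal axis) and in baf-1(G12T) (vertical axis), for hypodermis on the left and intestine on the right, with the line of equality and dashed lines at a difference of 0.5. Most members cluster at 0, srh-303 and srh-183 lie above the upper line in hypodermis, and srh-206, srh-42, srh-83 and srh-1 do so in intestine.

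Between tissues, taken as intestine minus hypodermis, the median srh difference was -0.01 for wild type and -0.02 for the mutant, beside -0.02 and -0.01 over all genes. In wild type 0 members were higher in intestine by over 0.5 (all genes, 2.28%) and 3 were lower, srh-10 at -0.96, srh-220 at -0.66 and srh-55 at -0.51 (1.36%, all genes 5.81%). After quantile normalization the same counts were 2 and 2. The largest values in the other direction were 0.47 for srh-49, 0.39 for srh-265 and 0.35 for srh-99. In the mutant 2 were higher, srh-206 at 0.79 and srh-42 at 0.61 (0.909%, all genes 3.51%), and 4 were lower, srh-303 at -1.13, srh-10 at -0.98, srh-183 at -0.94 and srh-237 at -0.60 (1.82%, all genes 4.33%). srh-10 was thus the only member past 0.5 in both genotypes. In wild type the scaling again turned the sign of the family's median, which became 0.02 both when centred on all genes and after quantile normalization.

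Over the 4 groups together the scores of a srh gene lay close to each other. The median distance between a member's highest and lowest score was 0.0944, where that of all genes was 0.178, and 114 members stayed within 0.1 (51.8%, against 31.3% of all genes). A distance over 0.5 was found for 10 members (4.55%, against 17.4%). The order of the members was shared in part. Pearson's r over the 220 genes ranged from 0.02 to 0.36 across the 6 pairs of groups, and Spearman's rho from 0.27 to 0.54, with the scores of a gene resting on the same GATC sites in every group. Over all genes the ranges were 0.24 to 0.48 and 0.24 to 0.45. Without srh-10 the highest Pearson's r was 0.29.

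Scores near 0 were most frequent at members with few sites. In 24 members (10.9%) no group exceeded 0.02 in either direction, which held for 5.15% of all genes, and these members had a median of 2 fragments. Of the 8 members with a single fragment, 8 lay within 0.02 of 0 in wild-type hypodermis, 6 in mutant hypodermis, 6 in wild-type intestine and 8 in mutant intestine. The 31 members with 8 to 15 fragments had lower medians, -0.08, -0.02, -0.12 and -0.04, than the 63 with 2 or 3 fragments, at -0.0095, -0.00051, -0.01 and -0.0083. Neither trait was particular to the family. Of all genes with a single fragment, 64.8%, 38.2%, 57.9% and 58.6% lay within 0.02 of 0. Over all genes the medians were -0.06, -0.03, -0.10 and -0.04 with 8 to 15 fragments. With 2 or 3 fragments they were -0.01, -0.00051, -0.03 and -0.01. A score at 0 was therefore not of the same weight at every receptor gene.

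Exactly 0 in all 4 groups were 4 members, which form 2 pairs of identical inverted copies. srh-57 and srh-305 on chromosome II are each 1439 bp long, lie on opposite strands 2329 bp apart, and differ at 0 bases. srh-227 and srh-228 on chromosome IV are each 1710 bp long, lie 1115 bp apart on opposite strands, and also differ at 0 bases. To show the identity, the stretch of 150 bases around the GATC site of srh-57 (WBcel235, chrII:3588757-3588906, plus strand) is printed with that of srh-305 (chrII:3592866-3593015, minus strand), with GATC in capitals.
srh-57: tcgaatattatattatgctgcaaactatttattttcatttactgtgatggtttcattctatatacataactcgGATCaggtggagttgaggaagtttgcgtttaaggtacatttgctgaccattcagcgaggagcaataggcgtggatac
srh-305: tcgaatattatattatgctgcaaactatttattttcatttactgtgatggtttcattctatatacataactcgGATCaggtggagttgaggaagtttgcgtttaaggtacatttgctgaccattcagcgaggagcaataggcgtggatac
Every 31-base word of these 4 genes occurs elsewhere in the genome. Over all genes, 178 were listed at 0 in every group, and of the 173 that could be placed 170 had more than 90% of such repeated words. Conversely, 339 placed genes had more than 90% repeated words, and 170 of them were at 0 throughout. How the mapping treated reads that fit more than 1 place is not stated, and the listed 0 is not read as a level of these 4 receptors.

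Less complete repetition was met in other members. In 16 srh genes (7.27%) over 25% of the words were repeated, close to the 8.20% of all genes, and their median largest absolute score was 0.022 compared with 0.097 in the remaining members. Over all placed genes these medians were 0.068 and 0.180, so smaller scores at repeated genes were not particular to the family. srh-171, with 81.4% repeated words, kept within 0.014 of 0 in all groups although it has 17 fragments, the most of any member. None of the 13 called members exceeded 25%, and the highest among them were srh-303 at 14.7% and srh-206 at 13.6%, followed by srh-183 at 7.49%. With only 16 members past 25% and few calls in the family, this is not read as a limit. Of the other members past a genotype difference of 0.5, srh-42 had 3.45% and srh-1 3.26%, while srh-83 and srh-237 had none, as did 93 of the 220 members. The part of repeated sequence in these scores was not tested.

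**Figure D4:**
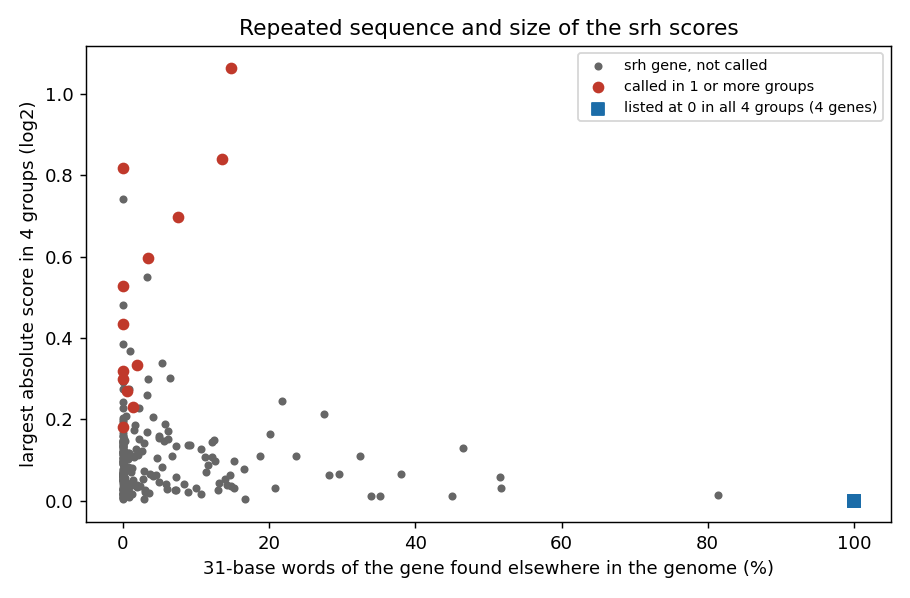
Largest absolute score over the 4 groups (log2, vertical axis) of each srh gene against the percentage of its 31-base words that occur elsewhere in the genome (horizontal axis), with members called in any group in red and the 4 members listed at 0 throughout as overlapping blue squares at 100%. Beyond 25% of repeated words lie only 16 members, none of them called.

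The family is concentrated on chromosome V, which holds 180 members (81.8%) and 9 of the 13 called genes, with 27 on II, 7 on IV, 3 on I, 2 on X and 1 on III. The median on V was -0.03, -0.00089, -0.04 and -0.02, as in the family at large. In the distal parts of the chromosomes, the 33.3% of the length at either end, lay 188 members (85.5%, against 62.4% of all genes). There 5.85% of the srh genes were called in any group, and 6.25% of the 32 in the middle, while over all genes the shares were 20.4% and 29.4%. The srh share was thus below that of all genes in both parts.

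When starts no more than 20 kb apart were joined, the members formed 48 runs with 158 genes and 62 single genes. The 13 called genes lay in 13 different units, and 0 units held more than 1 called member. The largest run has 13 members in 53.7 kb of chromosome V and contains srh-303. There its neighbours srh-304 and srh-286 scored 0.12 and 0.11 in mutant hypodermis, far below the 1.06 of srh-303, and the median of the run was 0.04. Across the 9 runs of at least 5 members the medians ranged from -0.07 to 0.04.

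The genes directly beside the srh genes were looked at as well. Of the 15 calls, 1 had a directly adjacent gene that was called in the same group. That was srh-49 on chromosome I, 130 bp from pnk-1, a pantothenate kinase gene on the same strand, which scored 0.69 in wild-type intestine with an FDR of 0.00023. The part of pnk-1 in the srh-49 score was not tested. In the family as a whole 7.27% of members had a called neighbour in wild-type hypodermis, 7.27% in mutant hypodermis, 8.18% in wild-type intestine and 12.3% in mutant intestine, compared with 18.1%, 14.1%, 14.9% and 19.5% of all placed genes. With 1 of 15, the calls do not stand apart from the family in this. The share among all called genes was not counted.

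Other chemoreceptor families had levels in the same range. The families sri, srj, srd and str, which belong with srh to the Str superfamily, and srw, srx and srt had medians between -0.07 and 0.01 in every group. Called in wild-type hypodermis, mutant hypodermis, wild-type intestine and mutant intestine were 0, 2, 2 and 5 of 61 sri genes, and 8, 5, 3 and 2 of 192 str genes. The 39 srj genes had 1, 0, 0 and 0 calls in the same order, and the 67 srd genes 1, 3, 2 and 2. The 109 srw genes had 0, 1, 0 and 1, the 101 srx genes 0, 2, 1 and 1, and the 61 srt genes 0, 0, 1 and 0. Of all genes 9.81%, 7.53%, 7.94% and 10.5% were called in the same order. The share of each family was below that of all genes in every group. For sri in mutant intestine it came close, at 8.20%, and elsewhere no share was over 4.48% (srd in mutant hypodermis). No difference between families was tested.

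**Figure D5:**
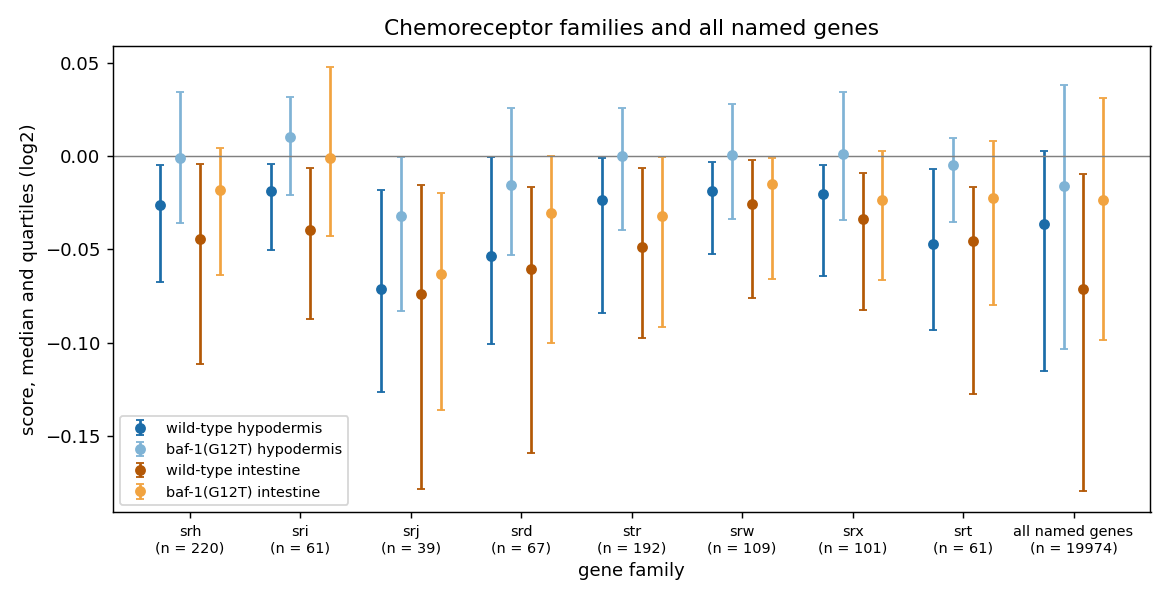
Median score (points, log2) and quartiles (bars) of the srh genes, 7 other chemoreceptor families and all named genes in the 4 combinations of tissue and genotype. The srh medians lie between -0.04 and -0.00094, and all families lie within the same narrow band just below or at 0.

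The machinery that serves such receptors in neurons was followed through 14 genes. In wild-type hypodermis 1 was called, egl-4, a cGMP-dependent protein kinase that is also active outside neurons, at 0.30. In mutant hypodermis 2 were called, egl-4 at 0.33 and odr-10, the diacetyl receptor of the AWA neuron, at 0.45. In wild-type intestine osm-9, a TRPV channel subunit, was called at 0.20, and in mutant intestine odr-4, needed for receptor transport to cilia, at 0.17 and egl-4 at 0.07. The G protein subunits odr-3 and gpa-3, the guanylate cyclases odr-1 and daf-11 and the channel subunits tax-2 and tax-4 were called in no group. Of all genes 9.81% and 7.53% were called in wild-type and mutant hypodermis, and 7.94% and 10.5% in wild-type and mutant intestine. Beside these shares, 1 or 2 calls among 14 genes are not read as a result about the pathway.

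The labelled tissues were checked with marker lists. Of 10 hypodermal genes 7 were called in each hypodermal table, 3 in wild-type intestine and 1 in mutant intestine, and of the 9 intestinal genes found 0 were called in either hypodermal table, 4 in wild-type and 5 in mutant intestine. The hypodermal genes called in wild-type intestine were dpy-13 at 0.80, lin-26 at 0.14 and vab-10 at 0.0071. The last, with 247 fragments, was called in every group and was the only one called in mutant intestine, at 0.11. dpy-7, whose promoter drove FLP in hypodermis, scored 0.01 and 0.03 there and was not called, and elt-2 was not called in intestine. Among 10 genes of neurons 4, 1, 4 and 4 were called, with scores of the list from -0.28 to 0.74 in wild-type hypodermis, -0.27 to 0.29 in mutant hypodermis, -0.32 to 0.46 in wild-type intestine and -0.21 to 0.35 in mutant intestine. Of 10 genes of ciliated sensory neurons, the cells in which srh genes are known to act, 1, 0, 0 and 1 were called, che-13 at 0.11 and odr-4 at 0.17, and the scores of the list ranged from -0.33 to 0.11, -0.45 to 0.05, -0.32 to -0.04 and -0.21 to 0.17. Of all genes 9.81%, 7.53%, 7.94% and 10.5% were called in the same order of groups. The calls of the ciliated list were thus near or below the general share. The list of neurons was above it in every group but mutant hypodermis, but many of its genes have many GATC fragments. Of all genes with 16 or more fragments, 18.1%, 12.9%, 15.6% and 20.7% were called in the same order. In wild-type intestine the called neuron genes were sng-1 at 0.46 (6 fragments), unc-104 at 0.33 (64), egl-3 at 0.03 (26) and unc-13 at 0.0062 (93). The part of fragment number in these calls was not tested. The cilium gene osm-6 was the lowest of the ciliated list in each group. The part of neuronal DNA in the srh calls was not tested.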

How the data were processed

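The authors mapped the reads to ce11. They ran damidseq_pipeline to set Dam::RPB-6 against GFP::Dam, and polii.gene.call to obtain a value per gene. The deposited score is on the log2 scale. The FDR is the one deposited by the authors, and the deposited count of GATC fragments per gene is not a count of reads. The sources used here do not state how the 2 replicates were combined.

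Of 19985 rows per table, 11 name no gene and were left out. Genes were placed by symbol with the RefSeq table of WBcel235 (220 of 220 members, 19111 of 19974 genes). The GATC sites inside a placed gene plus 1 equalled the deposited fragment number in 98.6% of members. Repeated words of 31 bases were counted on both strands of the whole genome. Sequences are from RefSeq, WBcel235. Counting steps were tested on simulated data (Python 3.11.15, numpy 2.4.6, pandas 2.3.3).

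Members, lists and named genes were chosen with earlier results of these data known. Named are the called members, the 3 highest and lowest by mean, the 3 largest differences per direction between genotypes in each tissue and between tissues in wild type, 4 members picked for a role in single neuron types (1 of them, srh-11, with no call, is not described because that role could not be checked) and those next to the FDR threshold. Alternatives were other FDR limits, a minimum score of 0.2, at least 4 fragments, protein-coding members, centring, the mean, quantile normalisation and a difference over 1. Leaving out members with over 25% repeated words was added after seeing the data. A median counted as moved at 0.05 or more, a count past 1.5 times. The planned limma fit and the fits by replicate were not run, as each table holds 1 value per gene.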

Additional observations from a re-analysis of the deposited data

Results flagged for a closer look

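At srh-55 the genotype difference was -0.33 in hypodermis and 0.44 in intestine, so that the intestinal difference exceeded the hypodermal one by 0.77. At srh-76, which has 2 GATC fragments, it was -0.39 in hypodermis and 0.27 in intestine, a gap of 0.66. In both genes the tissues moved in opposite directions by more than 0.25 each. The difference between tissues was not tested, since each group has 1 value per gene.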

How the results depend on the processing

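Of 72 alternatives over 20 results, 57 left the result within its tolerance and 15 moved it. Some of the 57 could not have moved a result. All members are protein-coding, so that alternative left the set unchanged, and leaving out repeated members could not change a count of calls. The tolerance of 0.05 was also larger than every srh median in size, so a median could change sign and still count as unmoved. With an FDR limit of 0.1 the srh genes called were 6 in wild-type hypodermis, 7 in wild-type intestine and 9 in mutant intestine. With 0.01 they were 0 in wild-type intestine and 2 in mutant intestine, and a minimum score of 0.2 left 2 in wild-type intestine. Requiring a difference over 1 left 1 member higher in mutant hypodermis, 0 higher and 0 lower in mutant intestine, 0 lower in wild-type intestine than hypodermis, and 0 higher and 1 lower in mutant intestine than hypodermis. Quantile normalisation left 2 members higher in mutant intestine and gave a median genotype difference there of -0.040. Centring on all genes moved the wild-type intestinal median to 0.027, and all 4 median scores were above 0 when centred. Members with at most 25% repeated words gave the same number of calls in each group (3, 3, 4 and 5), since no called member was past that limit. No paired analysis was possible because each table holds 1 value per gene and its columns carry no replicate number, and leaving out a replicate could not be run for the same reason. The small counts of called genes, the unknown read depth of each gene and the few GATC fragments per gene limit what can be said of single receptors.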
